A study of Homo sapiens with 9 samples.

Results

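Libraries of A549 cells that carry the replicate number 1 were compared with the libraries numbered 2 and 3. A549 is an established human lung adenocarcinoma line. The libraries were chosen by their replicate number alone, 3 with the number 1 and 6 with the numbers 2 or 3, and together they are all 9 libraries of the series. Each set holds every siRNA group, so that a replicate 1 library could always be set against replicates 2 and 3 of its own group. The groups were A549 cells transfected with Scramble siRNA, with SiREV1#1 or with SiREV1#2, 3 libraries each, and both SiREV1 siRNAs target REV1, which encodes a translesion DNA polymerase. All 9 libraries came from the same line, from cells that were transfected and were harvested 48 h later. The labels name DMEM with serum for the cells. They do not say what the replicate number stands for, or whether libraries of the same group came from separate cultures. The study's methods speak of independent repeats, but whether same-numbered libraries shared a passage, a day, an RNA preparation or a sequencing run was not given in the sources used here, and these cannot be told apart. The p-values treat the 9 libraries as separate samples and therefore measure only the spread between these libraries.

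Expression was measured by RNA sequencing of poly(A)-selected RNA. It is given as FPKM, the number of fragments scaled to transcript length and library size. Total estimated counts were between 13059082 and 20166451 in the 8 libraries whose counts could be used, and SiREV1#1 replicate 1 was the shallowest. The labels were checked by REV1, at 7.23, 2.6 and 3.62 FPKM in replicate 1 of Scramble, SiREV1#1 and SiREV1#2, against 7.9 and 8.44 in Scramble, 2.92 and 3.36 in SiREV1#1, and 3.36 and 3.18 in SiREV1#2. It was lower in both siRNA groups than in Scramble in either set, and the sets did not differ detectably (log2 difference -0.10, 95% confidence interval -0.34 to 0.15, adjusted p = 0.44 from limma). The keratin gene KRT8 and NQO1, both typical of this line, were at 1372 and 173 FPKM or more in every library. CDKN2A, which is deleted in A549, was at 0.73 FPKM at most. EPCAM was low at 0.73 to 2.38 FPKM, and KRT19, another epithelial marker, had a mean of 1.05 FPKM in replicate 1 and 0.23 FPKM in the other set. Of 18 listed markers of blood, endothelial and fibroblast cells, CD14 and CD68 were expressed, and the other 16 summed to 1.19 to 3.10 FPKM over all libraries.

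The genes are grouped below by programs through which cultured cells adjust to their surroundings. Growing cells switch on the DNA replication genes through E2F factors. Stressed cells use separate arms that can be read from their target genes. HSF1 drives chaperones when proteins misfold, ATF4 and its target DDIT3 answer a lack of amino acids or stress of the endoplasmic reticulum, p53 answers DNA damage, and NRF2 answers oxidants. NRF2 is constantly active in A549 because the line carries a mutation of its inhibitor KEAP1. YAP and TAZ are coactivators that enter the nucleus of spread, sparsely seeded cells and are kept out of it in dense ones. SREBP factors raise sterol and fatty acid synthesis when membrane sterols are scarce, and MondoA raises TXNIP and ARRDC4 when the cell senses glucose phosphates.

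Short promoter stretches of genes that carry the comparison are shown because they hold the letters that these factors are known to bind. They were read from RefSeq promoter windows of GRCh38.p14, from 250 bases before to 50 bases after the annotated start of each gene, 5′ to 3′ on the strand of the gene, and the match is in capitals. The heat shock letters GAANNTTC occurred in the windows of the 3 leading chaperone genes:
HSPA8: ggggcgagcttGAAAGTTCcagaacgctgc
HSPA1A: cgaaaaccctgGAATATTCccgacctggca
HSPA1B: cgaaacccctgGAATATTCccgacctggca
These lie at chr11:123062348-123062377 (minus strand), chr6:31815426-31815455 (plus strand) and chr6:31827622-31827651 (plus strand). The stretches of HSPA1A and HSPA1B are nearly the same, as are the genes themselves, so reads may be split between them. All 3 genes were higher in replicate 1. For genes that were lower there, the serum response letters (the CArG box) and the cyclic AMP response letters TGACGTCA are shown:
EGR1: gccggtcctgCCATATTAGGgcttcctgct
EGR1, second match: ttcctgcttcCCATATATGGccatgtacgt
PPP1R15A: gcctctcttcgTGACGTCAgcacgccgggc
The EGR1 stretches overlap at their ends, at chr5:138465364-138465393 and chr5:138465386-138465415 (plus strand), and that of PPP1R15A is at chr19:48872352-48872381 (plus strand). The antioxidant response letters TGACNNNGC, read here on the opposite strand, and the E2F letters TTTNNCGC are shown for genes that were higher in replicate 1:
GCLM: ctacgatttctGCTTAGTCAttgtcttcca
GPX2: gacctgtttttGCTAAGTCAtcctggggat
CDC6: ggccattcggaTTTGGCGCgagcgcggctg
They lie at chr1:93909446-93909475 (minus strand), chr14:64942849-64942878 (minus strand) and chr17:40287875-40287904 (plus strand). The windows of ATF3 (for TGACGTCA), FOSB and ANKRD1 (for the CArG box) and SRXN1 (for TGACNNNGC) held no match.

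A match was a description only, since these letters are common. Both strands were searched, and none of the printed matches overlaps a match to another of the motifs printed here. The HSPA8 match does overlap the heat shock letters in their other order, TTCNNGAA, which were in 7.84% of all windows. The HSPA8 window held a second GAANNTTC match, which is not printed. Among 27305 RefSeq promoter windows, 6.87% held GAANNTTC, 1.29% the CArG box, 1.98% TGACGTCA, 13.6% TGACNNNGC and 6.90% TTTNNCGC. Of the genes tested below, 9416 had a window. TGACGTCA was in 3.45% of these, in 0.73% of 822 windows of genes more than 2-fold higher in replicate 1 and in 4.83% of 1304 windows of genes more than 2-fold lower. The CArG box was in 1.03%, 0.73% and 1.76% of the same windows. GAANNTTC was in 4.55%, 3.65% and 5.29%, TGACNNNGC in 15.2%, 15.5% and 14%, and TTTNNCGC in 11.1%, 8.52% and 10.4%.

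Replicate 1 differed from replicates 2 and 3 at most genes. The comparison covered 11429 genes with a mean above 1 FPKM, on log2(FPKM + 0.1), with limma and the siRNA group as a covariate, and a gene was called at a Benjamini-Hochberg adjusted p under 0.05. The mean was taken over all 9 libraries, so a gene near 0 in either set could pass through the other set alone. On this scale, log2 differences are always replicate 1 minus replicates 2 and 3, and they understate the difference of genes with low values. In replicate 1, 3275 genes (28.7% of those tested) were called higher and 4643 (40.6%) lower. More than 2-fold, 1057 (9.25%) were higher and 1595 (14%) lower. The median over all genes tested was -0.12. When each library was centred on its own median, the median difference moved up by 0.19, and the share of calls that were higher went from 41.4% to 54.0%, or from 39.9% to 55.3% of the calls past 2-fold. In this fit, in the centred fit and in a fit on 1 difference per siRNA group (3 values in place of 9, added after seeing the data), 1056 genes were called more than 2-fold higher each time and 1192 more than 2-fold lower.

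Of the 11429 genes tested, 7607 had the same sign in all 6 within-group differences. Of the 2652 called more than 2-fold apart, a choice that favours a shared sign, 2642 had the same sign in Scramble, SiREV1#1 and SiREV1#2, and 10 did not. The median absolute log2 difference between replicate 1 and the mean of the other set was 0.50, 0.59 and 0.62 (Scramble, SiREV1#1 and SiREV1#2). Replicates 2 and 3 differed from each other by medians of 0.11, 0.07 and 0.07. In the same limma fit with 3 replicate numbers, 0 genes (0% of those tested) were called between replicate 3 and replicate 2, and 17 had an unadjusted p under 0.05. The error of that fit takes in how the replicate 1 difference varied with the siRNA group. It could therefore call few genes, and no conclusion is drawn from its calls. By the median differences, replicates 2 and 3 lay close together in every group while replicate 1 lay apart.

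The 12 genes with the widest gap in each direction are those whose smallest of 6 within-group differences was largest. In all 24 genes every replicate 1 library lay outside the range of the other 6. Their adjusted p values from limma were between 8.3e-10 and 3.1e-05. Both follow largely from how these genes were chosen. Over all 11429 genes tested, 5284 had sets that did not overlap. HSPA8, the constitutive cytosolic HSP70 chaperone, was the widest of those higher in replicate 1. It was at 903, 915 and 826 FPKM in replicate 1 of Scramble, SiREV1#1 and SiREV1#2, the order used for all such triplets, and at 35.3 and 30.9 in Scramble, 25 and 25.7 in SiREV1#1, and 26.8 and 27.3 in SiREV1#2 in the other set. This is a log2 difference of 4.95 (95% confidence interval 4.75 to 5.16), or 31-fold. GPX2, a glutathione peroxidase and NRF2 target, was at 463, 1036 and 455 FPKM against between 22.7 and 101 (median 33.2), a log2 difference of 3.83 (3.52 to 4.15). SLC6A6, which imports taurine, was at 36.3, 37.6 and 44 FPKM against between 2.17 and 3.31 (median 2.86). NOTCH3, a Notch receptor, was at 27.8, 13.4 and 35.6 FPKM against between 0.89 and 2.06 (median 1.17). These 4 genes were expressed in both sets, at levels that lay far apart.

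HSPA1A and HSPA1B, given below with the heat shock genes, also belong to these 12. The other leading genes higher in replicate 1 were below 1 FPKM in every library of replicates 2 and 3. They therefore passed the filter of a mean above 1 FPKM only through replicate 1, the set where they are high. SPDEF, an ETS factor of secretory epithelium, was at 5.37, 4.47 and 3.7 FPKM against between 0.03 and 0.14 (median 0.10). P2RY6, a receptor for extracellular UDP, was at 6.34, 9.12 and 6.99 FPKM against between 0.07 and 0.39 (median 0.24). ST6GAL1, a sialyltransferase of the Golgi, was at 4.54, 10.3 and 2.32 FPKM against between 0.06 and 0.46 (median 0.25). Each of these sets was separated by a wide gap. PRR15L was at 4.38, 3.12 and 5.56 FPKM against between 0.04 and 0.12 (median 0.07). CD14, a coreceptor for bacterial lipopolysaccharide that is best known from monocytes, was at 5.73, 5.89 and 5.04 FPKM against between 0.13 and 0.43 (median 0.33). The summed blood, endothelial and fibroblast markers without CD14 and CD68 were 1.74, 3.10 and 1.91 FPKM in replicate 1 and 1.19 to 2.44 in the other set, and their part in the result was not tested. TMEM189-UBE2V1 is a readthrough transcript that overlaps 2 genes, so its reads are uncertain. It was at 1.84, 14.9 and 1.21 FPKM in replicate 1 and was listed at 0 in 5 of the 6 other libraries, with 0.05 in the sixth.

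Among genes lower in replicate 1, ANKRD1 had the widest gap. ANKRD1 encodes an ankyrin repeat protein and is a classical YAP and TAZ target. It was at 3.44, 1.98 and 3.32 FPKM in replicate 1 and at 233 and 244 in Scramble, 148 and 146 in SiREV1#1, and 304 and 299 in SiREV1#2, a log2 difference of -6.23 (-6.43 to -6.03), or 74.9-fold. RHCG, an ammonium transporter, was at 0.64, 0.62 and 0.58 FPKM against between 37.1 and 42.7 (median 38.4). ATF3, a stress-induced member of the ATF and CREB family, was at 3.43, 3.62 and 5.78 FPKM against between 142 and 286 (median 191), with a log2 difference of -5.55 (-5.76 to -5.34). Every replicate 1 library was below 6 FPKM for these 3 genes. DDIT3, the CHOP factor of the integrated stress response, was at 12, 6.03 and 14.7 FPKM against between 190.3 and 374 (median 318). MAFF, a small MAF factor, was at 2.37, 1.59 and 4.74 FPKM against between 36.5 and 113 (median 51.7). GADD45A, a growth arrest gene induced by p53 and by ATF4, was at 10.9, 11.7 and 8.02 FPKM against between 107 and 257 (median 148). CYR61, a secreted matricellular protein and YAP target, was at 10.9, 10.1 and 19.8 FPKM against between 208 and 299 (median 233).

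The remaining leading genes of this direction had lower levels. Like RHCG above, they were below 1 FPKM in every library of replicate 1. They therefore passed the filter of a mean above 1 FPKM only through replicates 2 and 3, the set where they are high. NR4A3, an immediate-early nuclear receptor, was at 0.38, 0.88 and 0.47 FPKM against between 15.1 and 22.6 (median 18.8). PTX3, a secreted pentraxin of innate immunity, was at 0.03, 0 and 0.03 FPKM against between 2.06 and 9.87 (median 7.0), and SiREV1#1 replicate 1 was listed at 0. NEURL3, a ubiquitin ligase, was at 0.15, 0 and 0.39 FPKM against between 7.32 and 12.1 (median 8.05). CYP1A1, the cytochrome P450 induced by the aryl hydrocarbon receptor, was at 0.36, 0.15 and 0.38 FPKM against between 7.33 and 17 (median 11.2). PSG4 belongs to a family of near-identical glycoprotein genes, so its reads may be shared, and it was at 0.42, 0.18 and 0.28 FPKM against between 4.84 and 9.88 (median 6.49).

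**Figure D1:**
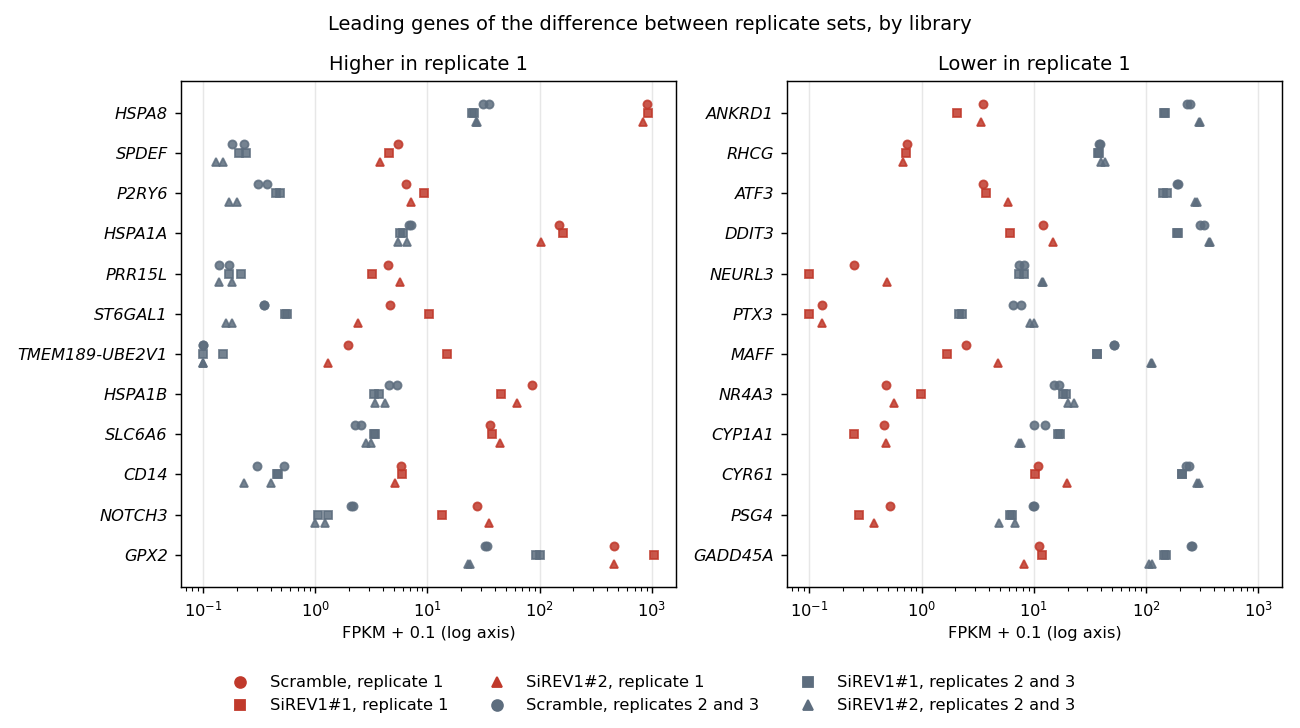
FPKM + 0.1 on a log axis for the 12 genes with the widest gap in each direction, 1 point per library, with red for replicate 1, grey for replicates 2 and 3 and the marker shape for the siRNA group. The genes were chosen for this gap, so red points lie apart from grey points in all 24. HSPA8 was at 826 to 915 FPKM in replicate 1 and ANKRD1 at 1.98 to 3.44.

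The counts of each list below stand against 28.7% of all genes tested called higher and 40.6% lower, 9.25% and 14% more than 2-fold, and a median of -0.12. Growth genes did not move as one group. Of 42 tested genes of DNA replication and the G1/S step, 29 were higher in replicate 1 and 6 lower, 16 and 1 of them by more than 2-fold, against 9.25% and 14% of all genes, and the list median was 0.88. MCM4, a subunit of the replicative helicase, was at 40.4, 13.9 and 30.4 FPKM against between 4.01 and 9.88 (median 5.04), a log2 difference of 2.12 (1.66 to 2.58). Replicate 1 of SiREV1#1 was the lowest of the 3 and still above every library of the other set. CDC6, which loads that helicase, was at 15.7, 9.27 and 14.2 FPKM against between 2.61 and 5.03 (median 3.11) (1.83, 1.56 to 2.09). CDK6, a kinase that drives cells out of G1, was the member that differed most in the other direction, at 6.81, 3.01 and 8.86 FPKM against between 14.1 and 29.2 (median 23) (-1.87, -2.12 to -1.61).

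The mitosis list had more lower than higher members. Of its 40 tested genes, 4 (10%) were higher and 23 (57.5%) lower, against 28.7% and 40.6% of all genes, with a median of -0.34. More than 2-fold lower were 5, or 12.5% against 14% of all genes. After centring 9 were higher and 18 lower with a median of -0.15. NDC80, part of the kinetochore, was at 4.7, 1.58 and 2.89 FPKM against between 5.59 and 11.8 (median 10.4) (-1.65, -1.97 to -1.33). KIF2C, a kinesin that takes microtubules apart, was at 16.4, 9.53 and 9.82 FPKM against between 22.4 and 41.6 (median 24.6) (-1.3, -1.46 to -1.14). ECT2, which organises cell division at its last step, was at 32.8, 21.1 and 19.6 FPKM against between 56.3 and 70.6 (median 59.7) (-1.36, -1.6 to -1.11). CDC20, an activator of the anaphase-promoting complex, was called in the opposite direction at 65.5, 34.3 and 27.1 FPKM against 34.4 and 32.4 in Scramble, 24.9 and 23.2 in SiREV1#1, and 7.49 and 7.69 in SiREV1#2, so the sets overlapped although it was higher in replicate 1 within each group. It was not called without the siRNA group as a covariate (adjusted p = 0.11 from limma).

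Of 17 tested replication-dependent histone genes, 16 were lower in replicate 1 and none higher, 15 of them more than 2-fold, with a median of -2.27. Most of these transcripts lack a poly(A) tail, and the libraries were made from poly(A)-selected RNA. HIST1H2AC, the gene of a histone H2A that was named after its values were seen, had a mean of 6.09 FPKM in replicate 1 and 71.3 FPKM in the other set. Of 8 further histone genes listed, all had a mean below the 1 FPKM needed for testing.

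Genes that hold cells out of the cycle were mostly lower in replicate 1. Of 17 tested inhibitors and quiescence genes, 2 were higher and 10 lower, 6 of them more than 2-fold, with a median of -0.63. KLF6, a zinc finger factor, was at 13, 13.8 and 14.4 FPKM against between 82.3 and 140.0 (median 112) (-2.99, -3.23 to -2.76). BTG2, an antiproliferative gene that p53 also induces, was at 6.94, 17.3 and 6.49 FPKM against between 47.2 and 104 (median 52.1) (-2.77, -2.96 to -2.59). KLF4, another such factor, was at 2.89, 5.92 and 3.96 FPKM against between 14.4 and 22.8 (median 17.9). TOB1, an antiproliferative relative of BTG2, was higher at 40.6, 67.5 and 36.5 FPKM against between 19.7 and 27.6 (median 24.8) (0.95).

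Genes of ribosome biogenesis and MYC targets differed in both directions, most of them by less than 2-fold. Among 35, 17 (48.6%) were higher and 13 (37.1%) lower, against 28.7% and 40.6% of all genes, and 3 and 2 of them passed 2-fold. UBTF, a factor of ribosomal RNA transcription, was at 38.8, 37.8 and 27.3 FPKM against between 8.99 and 16.3 (median 13.2), and ODC1, which makes polyamines and is a MYC target, was lower at 89, 87.2 and 70.5 against between 170.4 and 189 (median 179). BYSL, needed for the small ribosomal subunit, was at 15.7, 10.1 and 13.5 FPKM against between 25.5 and 30.5 (median 29.1). Of 78 cytosolic ribosomal protein genes, which share reads with many pseudogenes, 7 were higher and 6 lower and the median was -0.07, which turned to 0.06 without SiREV1#1 replicate 1. After centring 17 were higher and none lower, with a median of 0.12. MYC itself was at 29.4, 32.8 and 23.4 FPKM against between 36.5 and 53.8 (median 45.6) (-0.65, -1.0 to -0.30).

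Immediate-early genes are switched on within minutes by growth factors and stress. Of 27 tested, 26 were lower in replicate 1 and none higher, 21 of them more than 2-fold, and the median was -1.71. EGR1, a zinc finger factor driven by SRF, was at 0.57, 1.65 and 1.06 FPKM in replicate 1 and at 40.1 and 40.7 in Scramble, 16.8 and 17 in SiREV1#1, and 65.7 and 69.3 in SiREV1#2, a log2 difference of -5.02 (-5.97 to -4.07). SiREV1#1 had both the highest replicate 1 value and the lowest values in the other set, and without its replicate 1 the log2 difference was -5.89. FOSB, an AP-1 subunit, was at 0.21, 0.33 and 0.49 FPKM against between 4.42 and 23 (median 9.65) (-4.57, -5.2 to -3.93). DUSP1, a phosphatase that shuts off MAP kinases, was at 59.9, 63 and 93.2 FPKM against between 652 and 905 (median 768) (-3.44, -3.74 to -3.13).

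The integrated stress response list and the p53 list were also lower in replicate 1, and they share members with the groups above. Of 35 tested genes of the integrated stress response and amino acid supply, 2 were higher and 26 lower, 21 more than 2-fold, with a median of -1.22. PPP1R15A, which ends this response by dephosphorylating eIF2α, was at 14.2, 17.6 and 14.4 FPKM against between 169 and 360.5 (median 329) (-4.14, -4.64 to -3.64). DDIT4, an inhibitor of mTORC1, was called in the other direction at 213, 120.1 and 142 FPKM against 106 and 105 in Scramble, 140.0 and 133 in SiREV1#1, and 31.4 and 32.7 in SiREV1#2, and within SiREV1#1 alone it was slightly lower in replicate 1. Without Scramble replicate 1 or SiREV1#2 replicate 1 it was no longer called (log2 differences 0.98 and 0.41, adjusted p = 0.091 and 0.15 from limma), and without SiREV1#1 replicate 1 the log2 difference was 1.58. Of 26 p53 targets, 2 were higher and 23 lower, 18 more than 2-fold, with a median of -1.43. GDF15, a secreted stress cytokine, was at 42.9, 20.8 and 38.7 FPKM against between 238 and 618 (median 389) (-3.56, -3.78 to -3.34). CDKN1A, the p21 inhibitor of cyclin-dependent kinases, was at 67.8, 120.5 and 61.2 FPKM against between 181 and 367 (median 344) (-1.83, -2.16 to -1.51). CCNG1, another p53 target, was higher at 69.5, 72.1 and 91.2 FPKM against between 37.1 and 54.8 (median 38.7) (0.85).

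Heat shock genes were higher in replicate 1 and were led by a few members. Of 21 tested, 14 were higher and 6 lower, 7 and 2 of them more than 2-fold, and the median was 0.54. HSPA1A, the stress-induced HSP70, was at 147, 161 and 103 FPKM against between 5.31 and 6.96 (median 6.21) (4.43, 4.15 to 4.71). Its near-identical copy HSPA1B was at 85.6, 45.5 and 63 FPKM against between 3.24 and 5.29 (median 3.86) (3.96, 3.69 to 4.23). Both were at 45.5 FPKM or more in every replicate 1 library and at 6.96 FPKM or less in every other. DNAJB4, a cochaperone, was lower at 8.35, 9.26 and 11.5 FPKM against between 27.5 and 63.7 (median 35.1) (-2.03). In the unfolded protein response of the endoplasmic reticulum, 12 of 24 genes were higher and 7 lower. PDIA4, an isomerase of that compartment, was at 141, 102 and 129 FPKM against between 36.8 and 71.3 (median 59.2). The sensors were lower, ERN1 at 2.93, 2.21 and 3.04 against between 7.68 and 12 (median 10) and ATF6 at 10.5, 10.5 and 11 against between 30.1 and 43.7 (median 33).

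The NRF2 program was higher in replicate 1. Of 30 tested genes, 27 were higher and 2 lower, 15 and 2 more than 2-fold, with a median of 0.99. GCLM, a subunit of the enzyme that limits glutathione synthesis, was at 38.8, 20.5 and 41 FPKM against between 2.76 and 4.67 (median 4.41) (3.0, 2.48 to 3.51). SRXN1, which restores oxidised peroxiredoxins, was at 189, 169 and 355 FPKM against between 29.1 and 43.1 (median 36.6) (2.65, 2.34 to 2.96). NQO1, a quinone reductase, was at 719, 248 and 664 FPKM against between 173 and 367 (median 311) (0.85, 0.59 to 1.11), and its sets overlapped because it was low in all SiREV1#1 libraries. NFE2L2, which encodes NRF2, was lower at 45.3, 31.8 and 55.8 FPKM against between 116 and 147 (median 127) (-1.59, -1.86 to -1.32). FTL, the ferritin light chain and an NRF2 target, made up 4.04%, 4.76% and 5.08% of all FPKM in replicate 1 and 2.02% to 2.6% in the other libraries. Of 5 tested metallothionein-list genes, 2 were higher and 1 lower, and MT1X was at 59.4, 55.7 and 25.4 FPKM against between 15.4 and 31.7 (median 27.7).

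Cytokine genes were lower in replicate 1, while interferon genes were called in both directions. Of 28 tested genes of NF-kB signalling, cytokines and chemokines, 2 were higher and 25 lower, 1 and 21 more than 2-fold, with a median of -2.11. CXCL8, the neutrophil chemokine, was at 19.3, 6.5 and 35.4 FPKM against 319.7 and 351 in Scramble, 66.5 and 63.8 in SiREV1#1, and 454 and 461 in SiREV1#2, a log2 difference of -3.7 (-4.0 to -3.4). IL6, an inflammatory cytokine, was at 0.18, 0 and 0.40 FPKM against between 0.82 and 11.3 (median 9.41), with SiREV1#1 lowest in both sets. TRAF1, an NF-kB target, was at 0.30, 0.71 and 0.42 FPKM against between 6.9 and 22.3 (median 9.56). LCN2, an iron-binding protein of the acute phase, was higher at 29, 36.5 and 47 FPKM against between 8.98 and 11.9 (median 10.5) (1.82, 1.56 to 2.07). Of 23 interferon genes, 8 (34.8%) were higher and 10 (43.5%) lower, against 28.7% and 40.6% of all genes. More than 2-fold, 4 (17.4%) were higher and 6 (26.1%) lower, against 9.25% and 14% of all genes. The list median was -0.17 and turned to 0.02 after centring. IRF1, the factor shared by interferon and NF-kB signalling, was lower at 8.33, 8.35 and 13.3 FPKM against between 67.6 and 147 (median 90.9) (-3.31), and so was ISG20, an exonuclease, at 8.83, 8.06 and 9.64 against between 41.7 and 84 (median 58.7). IFIT1, which binds foreign RNA, was higher at 2.61, 1.83 and 3.82 FPKM against between 0.21 and 0.58 (median 0.46) (2.48). A further 18 interferon-list genes were in the files but below the level needed for testing.

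**Figure D2:**
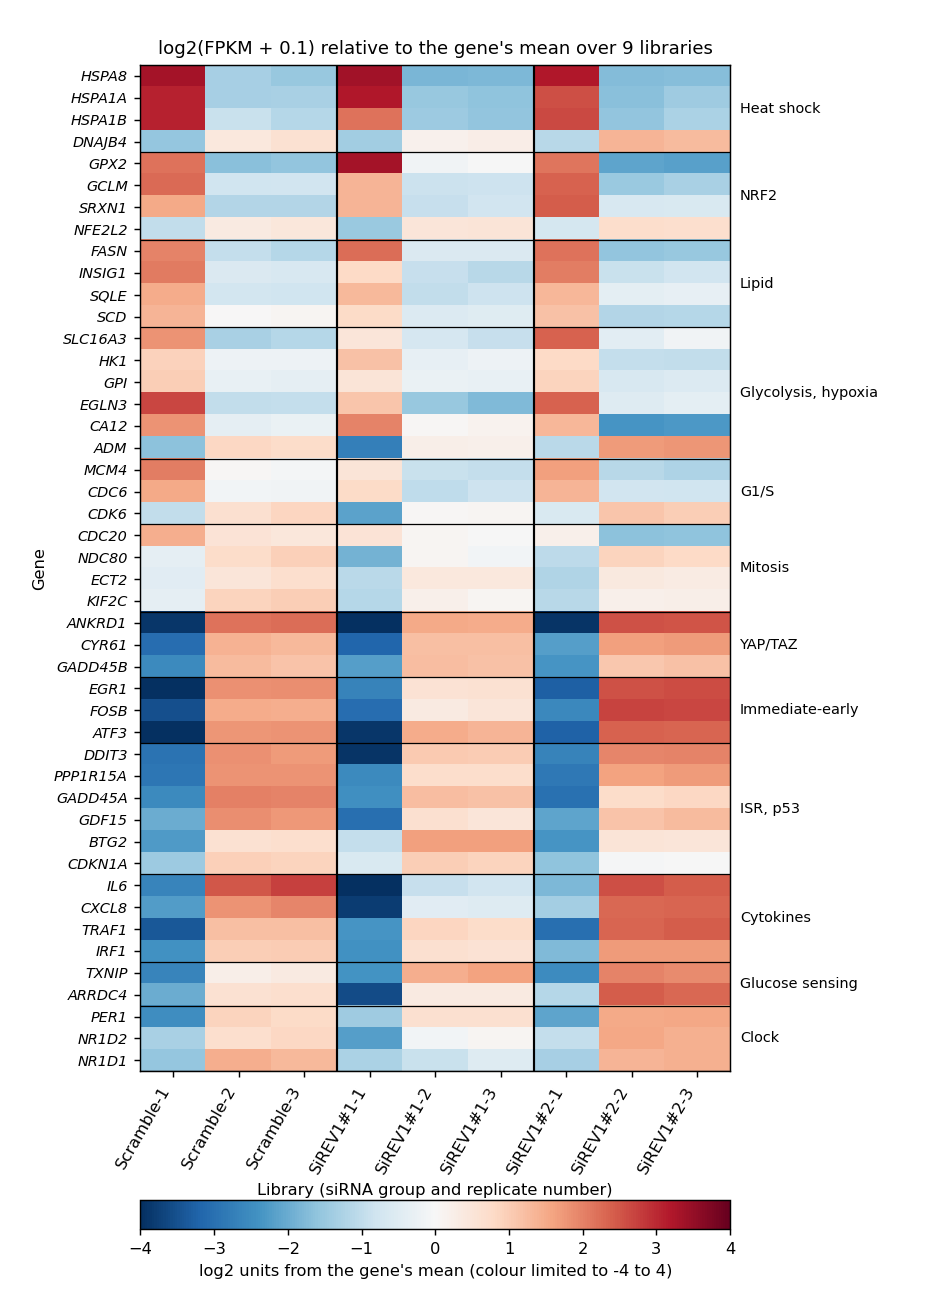
Log2(FPKM + 0.1) relative to the gene's mean over the 9 libraries, with genes in rows grouped by program and libraries in columns grouped by siRNA. Replicate 1 of each siRNA group stands apart from the adjoining replicates 2 and 3, from HSPA8 (log2 difference 4.95) at the top to ANKRD1 (-6.23) and the immediate-early genes below.

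Lipid synthesis was higher in replicate 1. Of 25 tested sterol synthesis genes, 18 were higher and none lower, 10 of them more than 2-fold, with a median of 0.83. INSIG1, which holds SREBP in check and is itself an SREBP target, was at 33.5, 13.7 and 32.4 FPKM against between 3.57 and 5.22 (median 4.38) (2.45, 2.06 to 2.85). SQLE, squalene epoxidase, was at 75.5, 67 and 67.7 FPKM against between 13.6 and 21.4 (median 15.8) (2.04, 1.79 to 2.3). Of 24 fatty acid synthesis and storage genes, 16 were higher and 3 lower, with a median of 0.55. FASN, fatty acid synthase, was at 89, 106 and 102 FPKM against between 7.56 and 15.1 (median 10.8) (3.18, 2.84 to 3.52). SCD, the stearoyl desaturase, was at 460.4, 307 and 412 FPKM against between 81 and 189.9 (median 126), and FADS2, a desaturase of polyunsaturated fatty acids, at 232, 196 and 242 against between 78 and 103 (median 95.4). PLIN2, a coat protein of lipid droplets, was lower within every group, at 30.4, 13.2 and 29.8 FPKM against 49.5 and 52 in Scramble, 27.8 and 25.4 in SiREV1#1, and 43.5 and 44.1 in SiREV1#2 (-0.77). Of 24 genes of fatty acid oxidation and PPAR targets, 11 were higher and 6 lower. The receptors divided, with PPARA at 1.7, 2.19 and 2.4 FPKM against between 0.58 and 1.03 (median 0.71), PPARD at 5.37, 6.96 and 8.37 against between 2.61 and 3.25 (median 3.06), and PPARG lower at 16.4, 17.7 and 20.2 against between 34.5 and 46.8 (median 44.5).

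Of 22 tested glycolysis genes, 13 were higher in replicate 1 and 1 lower, 6 higher by more than 2-fold, with a median of 0.64. SLC16A3, the lactate exporter MCT4, was at 13.3, 5.33 and 19.5 FPKM against between 1.46 and 3.36 (median 2.11) (2.32, 1.71 to 2.93). HK1, a hexokinase, was at 32.5, 38.9 and 29.5 FPKM against between 8.63 and 14.9 (median 14.2), and GPI, the next enzyme of the path, at 434, 318 and 406 against between 143 and 182 (median 176). PFKP, a phosphofructokinase, was lower at 196, 158 and 217 FPKM against between 263 and 360.3 (median 331) (-0.74, -0.90 to -0.57). GAPDH was at 7392, 8491 and 8538 FPKM against between 4460.5 and 5369 (median 5029) (0.71), a difference that turned to -0.26 with quantile normalization, while ACTB did not differ detectably (0.06, -0.13 to 0.25, adjusted p = 0.54 from limma). Hypoxia targets divided, with 11 of 26 higher and 6 lower. EGLN3, an oxygen-sensing hydroxylase, was at 30.3, 10.2 and 24.1 FPKM against between 1.31 and 3.56 (median 2.32) (3.07, 2.69 to 3.44). CA12, a membrane carbonic anhydrase, was at 359, 410.2 and 264 FPKM against between 20.2 and 115 (median 83.1). ADM, the peptide adrenomedullin, was lower at 46.5, 21.7 and 68.4 FPKM against between 169 and 494 (median 250.1) (-2.73, -2.97 to -2.5). Of the 7 glucose-sensing genes of the MondoA list, 4 were called higher, each by less than 2-fold, and 3 lower, each by more, and the list median was 0.32. Those lower were TXNIP at 0.11, 0.15 and 0.13 FPKM against between 1.44 and 5.14 (median 3.71) (-3.78, -4.33 to -3.23), ARRDC4 at 0.53, 0.11 and 1.03 against between 3.08 and 13.3 (median 3.79) (-3.35, -3.82 to -2.89) and KLF10 at 23.6, 40.9 and 25 against between 120.5 and 246 (median 126).

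Most nuclear-encoded subunits of oxidative phosphorylation were not called before centring, and few were lower. Of 76 tested, 22 (28.9%) were higher and 5 (6.58%) lower, against 28.7% and 40.6% of all genes. More than 2-fold higher were 3, and the median was 0.10 (-0.01 without SiREV1#2 replicate 1). After centring 39 were higher and 1 lower. NDUFS3, NDUFB10 and NDUFV3, all of complex I, were those past 2-fold, with NDUFB10 at 197, 240.2 and 231 FPKM against between 72.5 and 98.8 (median 89.7), NDUFS3 at 75.3, 39.6 and 93 against between 19.3 and 24.6 (median 22.1) and NDUFV3 at 28.3, 31.6 and 33 against between 12.2 and 16.2 (median 15). The 13 mitochondrially encoded subunits were not found among the genes listed for these libraries, so they were not compared. The 10 nuclear humanin-like genes (MTRNR2L), which are copies of mitochondrial ribosomal RNA sequence, held 5.48%, 13.0% and 5.78% of all FPKM in replicate 1 and 2.51% to 3.39% in the other libraries. Their part in the differences of other genes was not tested. Of 34 lysosome and autophagy genes, 13 (38.2%) were higher and 10 (29.4%) lower. The autophagosome proteins MAP1LC3B and GABARAPL1 were lower, at 37.8, 44 and 42.9 FPKM against between 144 and 169 (median 162) and at 27.1, 22.9 and 38.8 against between 80 and 142 (median 92.6), and WIPI1, an early autophagy protein, was higher at 10.2, 11.4 and 7.4 against between 2.24 and 3.98 (median 2.92). Of 31 proteasome subunits, 8 (25.8%) were higher and 14 (45.2%) lower, near the 28.7% and 40.6% of all genes. After centring 12 were higher and 7 lower, and the median turned from -0.18 to 0.12 without SiREV1#1 replicate 1. PSMB6, a catalytic subunit, was at 162, 101 and 187 FPKM against between 28.6 and 39.1 (median 34).

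**Figure D3:**
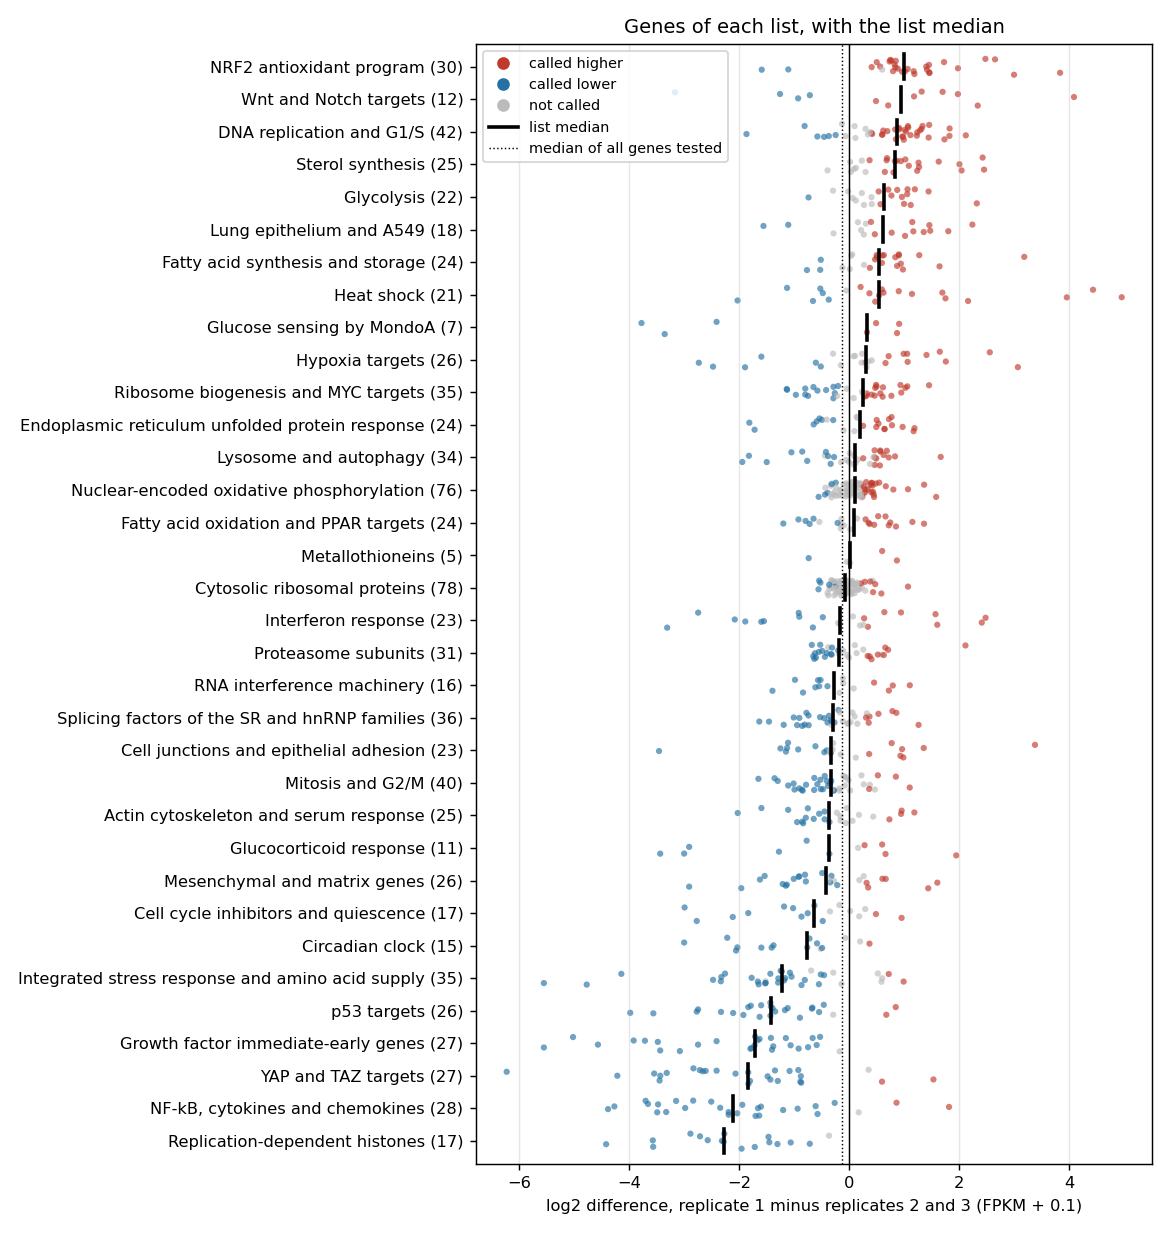
Log2 difference (replicate 1 minus replicates 2 and 3) of each tested gene of the lists with 5 or more tested genes, with red for genes called higher, blue for lower and grey for not called, a black bar at the list median and a dotted line at the median of all genes tested (-0.12). List medians run from -2.27 for histones to 0.99 for the NRF2 program, and the number of genes is in parentheses.

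Most targets of YAP and TAZ, which respond to cell density and spreading, were lower in replicate 1. Of 27 tested such genes, 24 were lower and 2 higher, 20 and 1 of them more than 2-fold, with a median of -1.83. ANKRD1 and CYR61, described above, led the list. GADD45B, a stress relative of GADD45A that is also counted among these targets, was at 27.6, 34.6 and 31.5 FPKM against between 340.5 and 386 (median 365) (-3.55, -3.74 to -3.35). NT5E, the ectonucleotidase CD73, was the exception past 2-fold, at 5.06, 5.45 and 6.13 FPKM against between 1.21 and 3.26 (median 1.52) (1.53). Of 25 actin and serum response genes, 4 (16%) were higher and 13 (52%) lower, against 28.7% and 40.6% of all genes, and 3 (12%) were more than 2-fold lower, against 14%. FHL2, a LIM-domain cofactor, was at 14.6, 9.2 and 10.4 FPKM against between 32.6 and 57.4 (median 52.7), and TPM1, a tropomyosin, at 117, 89.3 and 112 against between 294 and 349 (median 312). CFL1, which severs actin filaments, was higher at 898, 1436 and 743 FPKM against between 367 and 499 (median 437) (1.19).

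A pair of claudins differed in opposite directions. Of 23 tested junction genes, 7 (30.4%) were higher and 10 (43.5%) lower, near the 28.7% and 40.6% of all genes. CLDN1, a sealing claudin of tight junctions, was at 18.8, 25.2 and 22.7 FPKM in replicate 1 and at 231 and 244 in Scramble, 165 and 167 in SiREV1#1, and 369 and 363 in SiREV1#2 (-3.46, -3.9 to -3.02). CLDN2, which forms cation pores, was at 96.4, 138 and 111 FPKM against 9.12 and 8.75 in Scramble, 13.3 and 16.3 in SiREV1#1, and 9.0 and 10.7 in SiREV1#2 (3.38, 3.15 to 3.61). CLDN1 was thus the more abundant of the pair in every library of replicates 2 and 3, and CLDN2 in every library of replicate 1, as FPKM is scaled to length. CDH1, the epithelial cadherin, was higher within every group at 42.4, 43.8 and 33 FPKM against 17.3 and 17.3 in Scramble, 30.8 and 33.9 in SiREV1#1, and 6.58 and 6.32 in SiREV1#2, and the sets overlapped. It was not called without the siRNA group as a covariate (adjusted p = 0.051 from limma). Of 26 mesenchymal and matrix genes, 6 were higher and 16 lower. SMAD7, an inhibitor of TGF-β signalling that TGF-β induces, was at 5.3, 4.97 and 5.73 FPKM against between 18.4 and 23.9 (median 21.4), and ACTA2, smooth muscle actin, at 4.45, 5.46 and 2.53 against between 5.73 and 19.9 (median 16.8). SNAI1, a repressor of CDH1, was higher at 5.52, 9.24 and 7.05 FPKM against between 1.36 and 3.9 (median 2.19) (1.6).

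Of 12 tested genes of the Wnt and Notch list, 8 were higher and 4 lower. This list holds Notch receptors and ligands as well as targets. Its median of 0.94 turned to -0.72 when a mean above 5 FPKM was required, since fewer of the genes remained. AXIN2, a feedback inhibitor of Wnt signalling, was at 7.48, 4.92 and 4.83 FPKM against between 0.87 and 1.25 (median 1.04) (2.34, 2.03 to 2.64), and HES4, a Notch target, was lower at 9.94, 5.94 and 7.47 against between 54.3 and 95 (median 62) (-3.17). Of 18 tested lung epithelium and A549 genes, 11 were higher and 2 lower, with a median of 0.62. KRT8 was at 4848, 2870.5 and 5602 FPKM against between 1372 and 2345 (median 2167) (1.17, 0.63 to 1.7), and EPCAM, the epithelial adhesion molecule, at 1.56, 2.01 and 2.38 against between 0.73 and 1.73 (median 1.07) with overlapping sets. Both members called lower were named after their values were seen. KRT7, another abundant keratin, was at 821, 638 and 755 FPKM against between 1415 and 1934 (median 1501) (-1.11, -1.31 to -0.90), and GATA6, a transcription factor of lung epithelium, at 3.04, 3.41 and 2.43 against between 6.66 and 12.2 (median 8.6) (-1.56, -2.0 to -1.12).

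Clock genes, which cycle with the time of day and respond to serum, were lower in replicate 1 at 11 of 15 tested and higher at 1, with a median of -0.76. PER1, a repressor of the clock that glucocorticoids and serum also induce, was at 8.07, 16.9 and 10.4 FPKM against between 70.7 and 131 (median 80.3) (-3.0, -3.54 to -2.46). NR1D2, a nuclear receptor of the second loop of the clock, was at 4.37, 2.29 and 5.52 FPKM against between 10 and 31.8 (median 18.1) (-2.22). Its relative NR1D1 was at 4.55, 5.54 and 5.29 FPKM against 36.8 and 33.2 in Scramble, 7.15 and 9.28 in SiREV1#1, and 34.2 and 36 in SiREV1#2, so the gap was narrow in SiREV1#1. Of 11 glucocorticoid response genes, 4 were higher and 6 lower. TSC22D3, the glucocorticoid-induced leucine zipper, was at 6.12, 5.03 and 3.8 FPKM against between 16.2 and 88.3 (median 36), and SCNN1A, a sodium channel subunit, was higher at 29.2, 41.8 and 34.3 against between 7.29 and 13.4 (median 7.58). Of 36 splicing factors of the SR and hnRNP families, 7 were higher and 19 lower (11 and 13 after centring). Of 16 genes of the RNA interference machinery, 4 (25%) were higher and 8 (50%) lower, against 28.7% and 40.6% of all genes, and 5 and 6 after centring.

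The size of the difference varied with the siRNA group at many genes. In a limma test of the interaction of set and group, 6990 genes (61.2% of those tested) had an adjusted p under 0.05. It has 1 replicate 1 library per group, so a group cannot be told apart from that single library, and 3 residual degrees of freedom. Its residual error comes only from replicates 2 and 3, which lay close together. Its p values therefore do not measure the spread between replicate 1 libraries. The smallest p belonged to PGD, EPHX1 and ZFP36L1. PGD, an enzyme of the pentose phosphate pathway, was at 793, 796 and 693 FPKM in replicate 1 and at 257 and 249.9 in Scramble, 305 and 289.9 in SiREV1#1, and 33.8 and 33.4 in SiREV1#2 (log2 differences 1.65, 1.42 and 4.36, interaction adjusted p = 1.9e-07 from limma). EPHX1, microsomal epoxide hydrolase, was at 316, 316 and 248 FPKM against 87.5 and 88 in Scramble, 95.8 and 101 in SiREV1#1, and 13.8 and 13.9 in SiREV1#2 (1.85, 1.68 and 4.15, interaction adjusted p = 5.6e-07 from limma). In both, the replicate 1 libraries lay close together, and the SiREV1#2 libraries of replicates 2 and 3 lay far below the other 4. ZFP36L1, which destabilises AU-rich mRNA, was at 30.2, 95 and 32.5 FPKM against 129.7 and 133 in Scramble, 103 and 106 in SiREV1#1, and 137 and 139 in SiREV1#2 (-2.12, -0.14 and -2.08, interaction adjusted p = 1.1e-06 from limma). The log2 differences over all groups were 2.48, 2.56 and -1.45 for these 3 genes. Without SiREV1#2 replicate 1 those of PGD and EPHX1 were 1.53 and 1.77, and without SiREV1#1 replicate 1 that of ZFP36L1 was -2.10. In ZFP36L1 the siRNA group that stood out was SiREV1#1, whose replicate 1 library was close to its replicates 2 and 3.

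**Figure D4:**
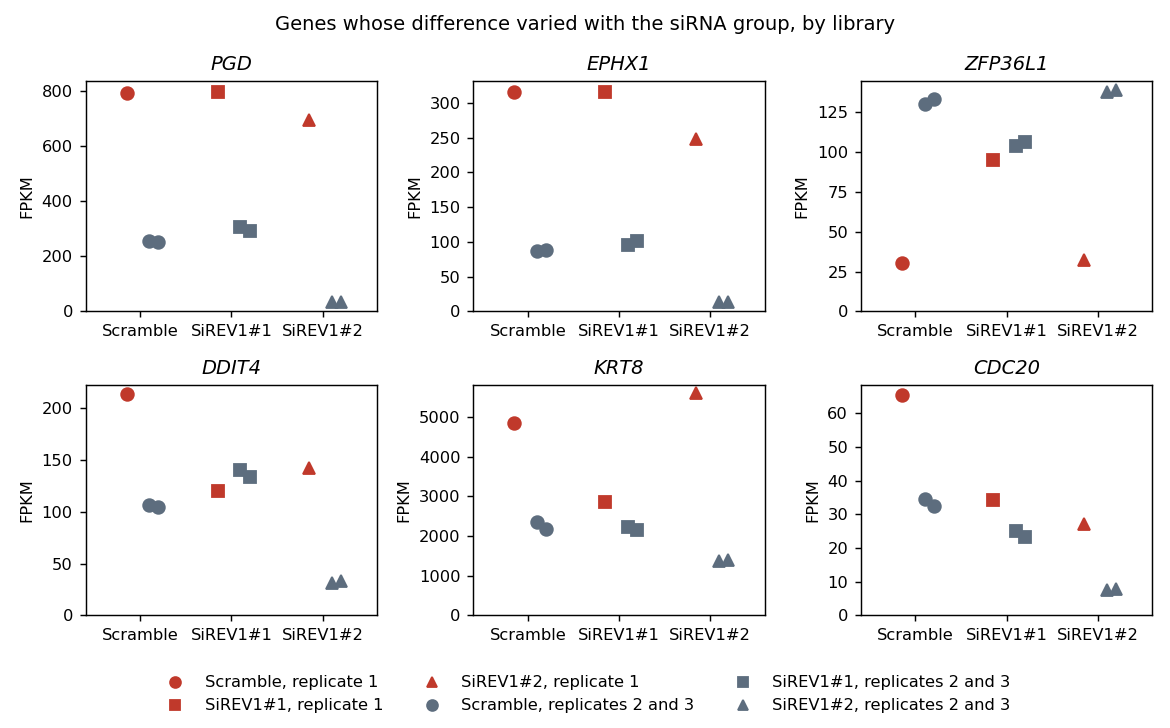
FPKM on a linear axis from 0 for 6 genes whose difference varied with the siRNA group, 1 point per library, red for replicate 1 and grey for replicates 2 and 3. PGD was at 693 to 796 FPKM in replicate 1, while SiREV1#2 replicates 2 and 3 were at 33.8 and 33.4 against 249.9 to 305 in Scramble and SiREV1#1.

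The difference varied with the base composition of the transcripts. For 11314 of the genes tested (99.0%), the GC content of the longest protein-coding transcript in GENCODE release 29 was known. Split into 4 bins of near-equal size, the genes had median log2 differences of -0.38, -0.21, -0.02 and 0.15 from the lowest to the highest GC content. Genes more than 2-fold higher made up 3.68% of the lowest bin and 16.0% of the highest, and genes more than 2-fold lower 19.1% and 9.33%. In 4 bins by transcript length the medians were -0.05, -0.09, -0.12 and -0.24 from the shortest to the longest. When the values of each library were centred within 10 bins of GC content, an alternative added after seeing the data, 4274 genes were called higher and 3596 lower, 1346 and 1128 of them more than 2-fold. The list medians kept their sign in that fit for 32 of 35 lists, all but the cytosolic ribosomal proteins, the interferon response and the proteasome subunits.

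**Figure D5:**
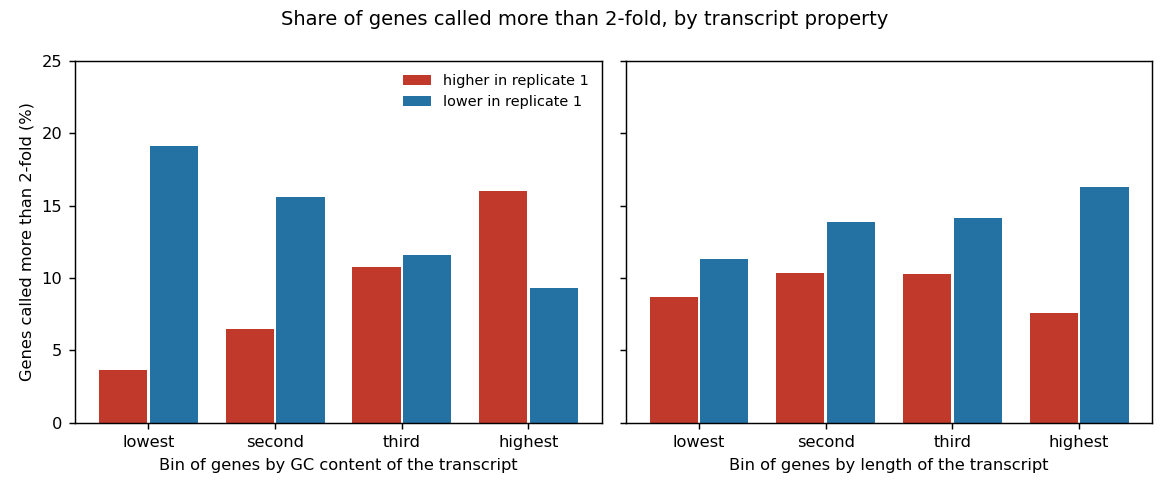
Share of genes called more than 2-fold higher (red) or lower (blue) in replicate 1, as bars from 0, for 4 bins of the genes by GC content and by length of the longest protein-coding transcript. The share of higher genes runs from 3.68% to 16.0% with GC content and that of lower genes from 19.1% to 9.33%.

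Of the genes named with their values, 55 were called higher and 61 lower, and 2 were not called (REV1 and ACTB). Most could be named only if they were called, so these counts follow from the choice. Over all genes tested, 28.7% were called higher and 40.6% lower. The adjusted p values from limma of the named genes called were at most 0.0225.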

How the data were processed

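RNA from A549 cells was sequenced 48 h after transfection with Scramble siRNA, SiREV1#1 or SiREV1#2, 3 libraries each, on the BGISEQ-500 platform at BGI. For each library the authors deposited expected counts (estimated reads per gene) and FPKM for 18143 genes listed by NCBI Gene identifier. The submitters' processing notes name StringTie 1.3.3b and the build hg38, and the aligner and any use of strand were not given in the sources used here. SiREV1#2 replicate 3 has a count column identical to replicate 2 (100% of genes), which was left out, so that fits on counts held 8 libraries, while FPKM held all 9. The labels' extraction text describes tissue, although the samples are a cell line.

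Libraries were grouped by their titles. Genes with a mean above 1 FPKM (11429) were compared on log2(FPKM + 0.1) with limma 3.58.1 (limma-trend) under R 4.3.3, two-sided, with the siRNA group as a covariate, Benjamini-Hochberg adjustment over all genes tested and a threshold of 0.05. FPKM were taken as scaled by the authors, and a library dominated by a few genes shifts the rest, which the median-centred fit addresses. The fit was first tested on simulated data. Alternatives were a pseudocount of 1, other filters, median centring, quantile normalization, a threshold of 0.01, no covariate, edgeR 4.0.16 and DESeq2 1.42.0 on rounded counts (14205 genes), single reference replicates and leaving out each library. GC content came from GENCODE release 29, and promoter windows from RefSeq. Other steps ran in Python 3.11.15 (pandas 2.3.3, numpy 2.4.6, matplotlib 3.10.9).

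The comparison, the gene lists and the genes to name were chosen with earlier results of these data known, so no list was tested as a set. Genes were named as the 12 in each direction with the largest smallest-of-6 within-group difference among those called more than 2-fold, as the 3 called members of each list with the largest difference and the most different called member of the opposite direction (of which some are given), as the 3 with the smallest interaction p, and as REV1 and 8 reference genes. KRT7, GATA6 and HIST1H2AC were added after their values were seen. A few of these genes are not reported here.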

Additional observations from a re-analysis of the deposited data

Results flagged for a closer look

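Of 118 named genes, 38 had a difference between the replicate sets that varied with the siRNA group, by the limma interaction test at an adjusted p under 0.05 and with more than 2-fold between the largest and the smallest of the 3 group differences. The value given for each is that largest minus smallest log2 difference. The named genes were mostly chosen for large differences, and 3 of them for the smallest interaction p. By the interaction test alone most genes tested were called, as given above. The count by both rules was not made over all genes, so whether it is particular to the named genes was not tested. With 1 replicate 1 library per group, the group and the library cannot be told apart. Groups of 3 libraries were too small to be searched for single outlying samples.

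The groups lay furthest apart at TMEM189-UBE2V1 (3.22), an overlapping readthrough gene listed at 0 in 5 libraries. PGD (2.94), EPHX1 (2.47) and CA12 (1.8) had the largest difference in SiREV1#2, where replicates 2 and 3 were the lowest of the other set. Metabolic genes with smaller values were SLC16A3 (1.72), NDUFS3 (1.55), TXNIP (1.52), ARRDC4 (1.3), KLF10 (1.69), SCD (1.06) and INSIG1 (1.04).

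Among stress and signalling genes, the values were 2.64 for EGR1, 2.33 for DDIT4, 1.81 for FOSB, 1.39 for PPP1R15A, 1.98 for ZFP36L1, 1.23 for PDIA4, 1.55 for GCLM and 2.08 for CYP1A1. DDIT4 was the only one of the 38 that was called and had opposite signs among the groups, at 1.01, -0.19 and 2.14 in Scramble, SiREV1#1 and SiREV1#2. Among immune genes, they were 2.21 for TRAF1, 2.07 for IFIT1, 1.96 for IL6, 1.72 for PTX3, 1.67 for NEURL3 and 1.02 for P2RY6.

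Epithelial, matrix and Notch genes had values of 1.9 for CDH1, 1.62 for KRT8, 1.61 for SNAI1, 1.49 for NOTCH3, 1.46 for NT5E, 1.45 for HES4, 1.29 for CLDN1 and 1.3 for GATA6. The clock and hormone response genes NR1D1, TSC22D3 and PER1 had values of 2.37, 2.02 and 1.59. The cell cycle genes MCM4 and CDC20 had values of 1.38 and 1.31.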

How the results depend on the processing

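Replicate 1 is 1 library per siRNA group, and the replicate number is the comparison itself, so what else differed between the sets cannot be told apart from it. No paired analysis was possible because the sets compared are the replicate numbers, and a block on that number would take up the whole difference. The repeated count column left 8 libraries for fits on counts. Leaving out 1 replicate 1 library left its siRNA group without a library of that set, and the remaining groups then carried the comparison.

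The counts of genes called stayed within 1.5 times their values under 99 of 104 settings and counts. The number more than 2-fold higher in replicate 1 was 1939 with edgeR and 1920 with DESeq2 on counts, 1598 with no filter and 558 with a mean above 5 FPKM, where other numbers of genes were tested, against 1057. With 1 median-centred difference per siRNA group, added after seeing the data, 2727 genes were called lower, against 4643, and the test then rests on 3 values. With 1 library left out, the genes more than 2-fold higher were between 964 and 1255 and those more than 2-fold lower between 1540 and 1800.

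Of 875 recomputed list medians 1 reversed. The median of the Wnt and Notch list was -0.72 with a mean above 5 FPKM, where fewer genes were tested. Medians near 0 changed sign under some settings, so that median centring, like centring within 10 bins of GC content, kept the sign of 32 of 35 lists. The list of fatty acid oxidation and PPAR targets went from 0.08 to -0.02 without SiREV1#2 replicate 1.

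For the 118 named genes, 3049 values were recomputed. The difference of GAPDH was -0.26 with quantile normalization, and that of DDIT4 was -0.19 within SiREV1#1 alone. A call was lost in 9 values of 6 genes and gained in 1, that of ACTB after median centring (0.25, adjusted p = 0.040 from limma). CDC20, DDIT4, PLIN2, CDH1 and NQO1 lost it without the covariate, and MYC with 1 median-centred difference per group (-0.46, adjusted p = 0.094 from limma). The cause was not tested. Leaving out SiREV1#1 replicate 1 moved further named genes by over 1.5 times, to log2 differences of 3.99 for TMEM189-UBE2V1, -4.29 for CYP1A1, -4.99 for TRAF1, -2.81 for NR1D1 and -2.31 for TSC22D3, and leaving out SiREV1#2 replicate 1 gave 5.61 for TMEM189-UBE2V1.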
